A study of Mus musculus with 36 samples.

Results

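The libraries described here are the 6 small RNA libraries made from cell-free plasma of Prog-Tg mice and of wild-type (WT) mice, 3 of each genotype, out of 36 libraries in the series. They were taken by the plasma and genotype labels of the samples, and no measured value entered that choice. The series was made to find miRs linked to endothelial senescence in a mouse model of Hutchinson-Gilford progeria syndrome and to see which of them appear in blood. Prog-Tg mice carried Cdh5TA, a tetracycline-controlled transactivator driven by the promoter of the endothelial cadherin gene Cdh5, together with TetOp-LAG608G, a minigene of human lamin A with the progeria mutation. The minigene can give human lamin A as well as progerin, the truncated lamin A of the disease, and its expression is directed to endothelial cells (ECs). WT mice were wild-type littermates, and the plasma came from 3 Prog-Tg and WT littermate pairs by the study's methods. The transactivator line came from FVB mice, and the mice were kept on a C57BL/6J background that was not fully backcrossed. LA-Tg mice, which carried Cdh5TA with a minigene of unmutated human lamin A (TetOp-LA), gave 3 further plasma libraries of the series. They are used below as a second point of reference, and they also entered the filter and the fit of the levels. All mice were older than 25 weeks, and each library came from 50 microlitres of EDTA plasma. The labels do not say which libraries came from the same litter, so the libraries were compared unpaired.

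miRs are short RNAs, cut from a hairpin precursor, that guide Argonaute proteins to messenger RNAs. Target recognition rests mainly on the seed, the stretch from base 2 to base 8 counted from the 5′ end. miRs leave cells in vesicles, in protein complexes and through cell damage, and are stable in plasma, where most of them come from blood cells, muscle, liver and endothelium. Plasma holds no cells, so a change in release and a change in the number of releasing cells cannot be told apart in these values.

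The miRs on which the comparison turns are shown first, with the seed in capitals. The family of miR-148 and miR-152 is shown because its 3 members share the seed and miR-148b-3p and miR-152-3p had opposite detection patterns.
miR-148b-3p: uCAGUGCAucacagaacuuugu
miR-148a-3p: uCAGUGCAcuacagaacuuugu
miR-152-3p: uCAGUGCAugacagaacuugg

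Counted from the 5′ end, miR-148a-3p differed from miR-148b-3p by U9C and C10U, and miR-152-3p differed from miR-148b-3p by C10G and U20G over the 21 bases they share. On the GRCm38 build, miR-148b-3p lies at chr15:103285185-103285206 (+) in an intron of Copz1, and miR-152-3p at chr11:96850439-96850459 (+) in an intron of the paralogous gene Copz2. miR-148a-3p lies at chr6:51269829-51269850 (-), outside any annotated host gene.

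The miR-10 pair is shown because miR-10b-5p had the smallest p of the whole comparison. The sequences differed only by A12U, going from miR-10b-5p to miR-10a-5p.
miR-10b-5p: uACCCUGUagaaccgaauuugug
miR-10a-5p: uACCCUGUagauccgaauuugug

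miR-10b-5p lies at chr2:74726074-74726096 (+), within introns of Hoxd3 and Hoxd4, and miR-10a-5p at chr11:96317186-96317208 (+), with no host gene overlapping it.

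The senescence-associated miRs of the study are shown next, then 3 miRs found in Prog-Tg plasma and at 0 or 1 count in WT plasma, and last 2 miRs known from red blood cells.
miR-34a-5p: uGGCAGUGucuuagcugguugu
miR-31-5p: aGGCAAGAugcuggcauagcug
miR-28a-5p: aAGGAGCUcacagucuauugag
miR-484: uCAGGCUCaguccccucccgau
miR-652-3p: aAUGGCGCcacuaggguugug
miR-451a: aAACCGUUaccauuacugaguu
miR-16-5p: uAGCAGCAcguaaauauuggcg

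miR-34a-5p lies at chr4:150068473-150068494 (+), with no host gene in the annotation, and miR-31-5p at chr4:88910614-88910635 (-), within an exon of a long non-coding RNA. miR-28a-5p (chr16:24827868-24827889, +) and miR-652-3p (chrX:142739060-142739080, +) lie in introns of Lpp and Tmem164. miR-484 (chr16:14159630-14159651, +) lies in an intron of Marf1, on the opposite strand. miR-451a is at chr11:78073186-78073207 (+). miR-16-5p is made from 2 loci, at chr3:69009918-69009939 (+) in an intron of Smc4 and at chr14:61631936-61631957 (-) in an intron of Dleu2.

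Each library held 14922120 to 22177571 counts in Prog-Tg plasma, against 19460824 to 22674234 counts in WT plasma. By the counts as listed, nearly all of them belonged to miR-486, a miR abundant in red blood cells and muscle, which has 4 features. The share of miR-486 was 92.3, 92.7 and 96.7% in the Prog-Tg libraries, against 95.1, 97.5 and 98.0% in the WT libraries. The ranges overlapped, and the difference between the means, -2.95 percentage points, did not stand out from the spread (two-sided exact permutation test, p = 0.20, where 3 against 3 libraries cannot go below 0.10). The 4 features form 2 pairs with identical counts, and with each pair counted once the share averaged 88.8 ± 4.30% in Prog-Tg and 94.1 ± 2.78% in WT (SD, n = 3 each), a difference of -5.23 percentage points (exact permutation p = 0.20). The 2 pairs in turn had nearly equal counts over the 9 plasma libraries, 42461997 and 42448046. If both pairs hold the same reads, a share with each read counted once would be lower still in both genotypes. The log2 ratio of miR-486 over miR-16-5p differed by -1.67 between Prog-Tg and WT, with the smallest exact permutation p that 3 against 3 libraries allow, 0.10. This ratio is not a measure of miR-486 alone. As a share of all counts, miR-16-5p was higher in Prog-Tg without overlap, as given further on. The 95% Wilson interval of each share was at most 0.0247 percentage points wide. Such intervals, and the limits for counts of 0, cover counting error only, since no molecular identifiers are stated for these libraries. Counts outside miR-486 came to 1701175, 1251933 and 486006 in Prog-Tg plasma, against 947452, 573392 and 393228 in WT plasma (exact permutation p = 0.30). The Prog-Tg libraries with replicate numbers 1 and 2 were the deepest of the 6 in this respect, while Prog-Tg 3 lay within the WT range.

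**Figure D1:**
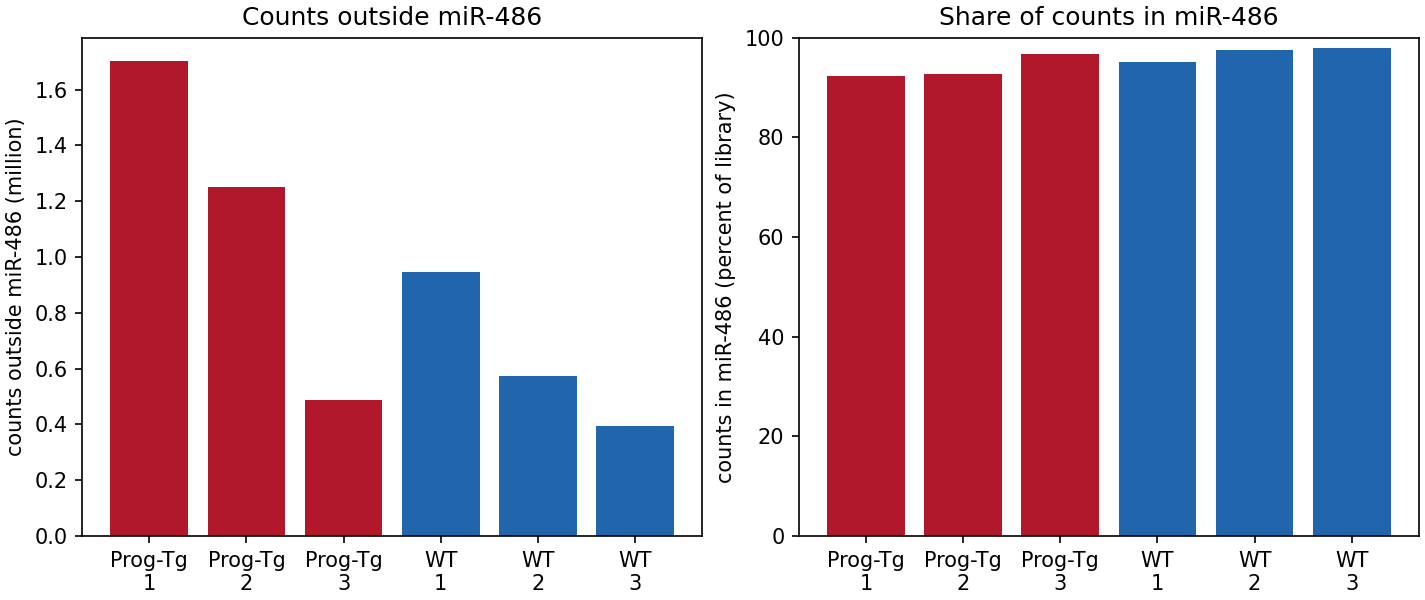
Counts outside the 4 miR-486 features (left) and the share of all counts in miR-486 (right, percent) in each plasma library, Prog-Tg in red and WT in blue. Outside miR-486 the Prog-Tg libraries held 486006 to 1701175 counts and the WT libraries 393228 to 947452, and the 2 ranges overlap.

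Some features of the table are not separate measurements. Of 14 pairs of features with identical counts in all 9 plasma libraries and at least 10 counts, 8 had mature sequences that overlap on opposite strands. miR-24-3p and miR-3074-5p are printed as an example of such a pair, since miR-3074-5p carried the same counts as miR-24-3p.
miR-24-3p: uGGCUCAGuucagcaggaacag
miR-3074-5p: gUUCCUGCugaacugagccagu

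They overlap by 20 bases on chromosome 13 (miR-24-3p at chr13:63301251-63301272, +, and miR-3074-5p at chr13:63301249-63301270, -) and again on chromosome 8. The same holds for miR-126a-3p with miR-126b-5p and miR-30e-3p with miR-30f, which overlap by 19 bases each. Such partners are named below as a single miR under the better-known name, and the reads of the 2 strands cannot be told apart. Tallies of features and of lists still count each partner. miR-486a-5p had the same counts as miR-486b-3p, and miR-486b-5p the same as miR-486a-3p.

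Detection did not separate the genotypes. Of 1907 features in the table, 236 had a count in at least 1 of the 6 libraries, 184 in Prog-Tg plasma and 188 in WT plasma. Single libraries held 115 to 127 detected features in Prog-Tg, against 109 to 138 in WT. The means were 123 ± 6.66 in Prog-Tg and 123 ± 14.5 in WT (SD, n = 3 each; two-sided exact permutation p = 1.0). With a threshold of 10 counts the libraries held 82, 100 and 102 features in Prog-Tg, against 109, 98 and 88 in WT. The WT libraries thus spanned the wider range at 1 count, and both genotypes overlapped at either threshold.

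A miR in these libraries was mostly well covered or missing. Among the 738 counts above 0, 557 (75.5%) were at 100 or more, 22 (2.98%) were at 10 to 99, and 159 (21.5%) were at 1 to 9. In all, 57 features had at least 1000 counts in 1 library and 0 in another. In Prog-Tg 1, for example, 73 features had 1000 counts or more, 4 had from 100 up to 1000, 5 had 10 to 99, and 33 had 1 to 9. A 0 in a library allows up to 0.135 to 0.201 CPM (counts scaled to the library total) in Prog-Tg and 0.132 to 0.154 CPM in WT, by the limit of 3 counts. Only 62 features (26.3%) were present in all 6 libraries, and they carried 93.9 to 94.9% of the counts outside miR-486. By contrast, 84 features were present in a single library, and 55 of these had at least 100 counts there.

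Libraries of a genotype shared no more well-covered features than libraries of different genotypes. Pairs of libraries within a genotype had 52 to 70 features at 100 counts or more in common (mean 62.2 over 6 pairs), and pairs across genotypes had 53 to 70 (mean 62.3 over 9 pairs). These pairs share libraries, so the means are a description. The features found in Prog-Tg only (48) and in WT only (52) were mainly seen once: 39 of the Prog-Tg ones and 45 of the WT ones came from a single library. A full split between the genotypes was seen for 2 features. miR-148b-3p was in 3 of 3 Prog-Tg and 0 of 3 WT libraries, 1 of the 236 features or 0.424%, and miR-421-3p was in 0 of 3 Prog-Tg and 3 of 3 WT libraries, likewise 0.424%.

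**Figure D2:**
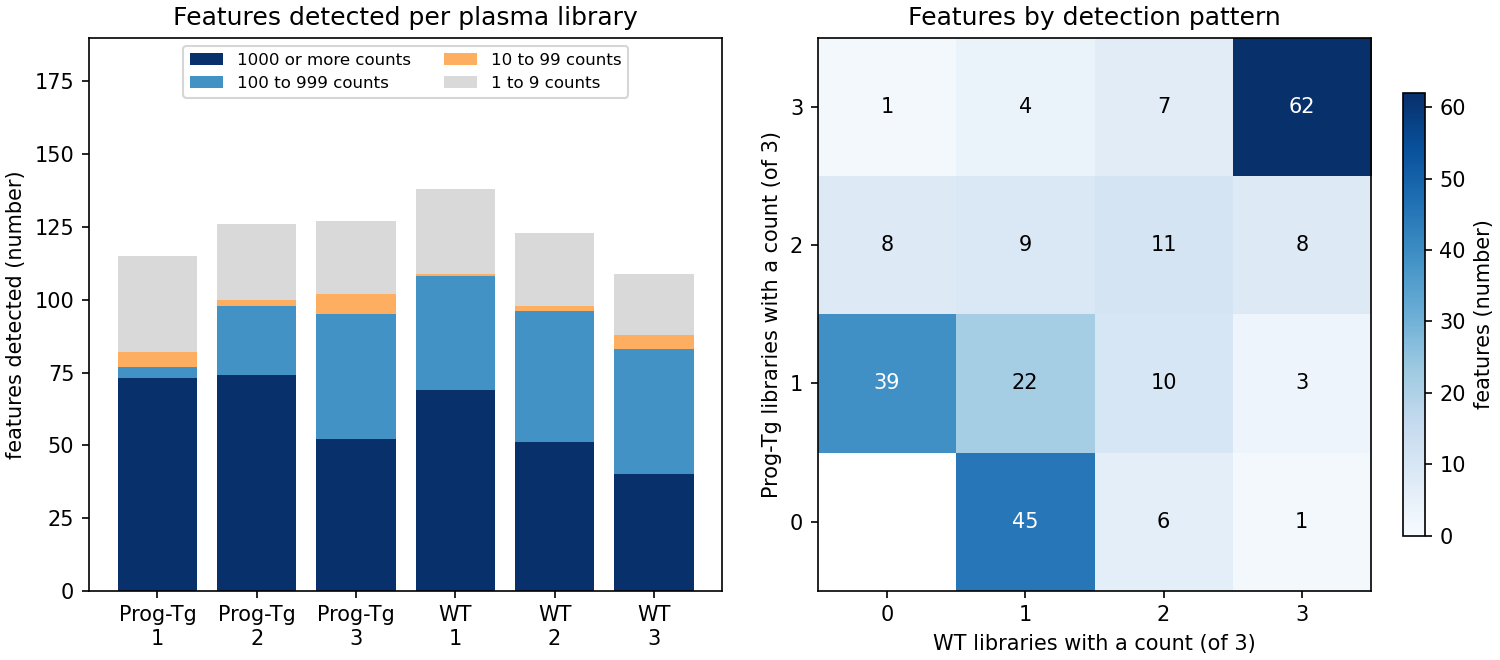
Left, number of features detected in each plasma library, Prog-Tg then WT, stacked by the count they reached. Right, number of features by how many of the 3 Prog-Tg (vertical) and 3 WT (horizontal) libraries they had a count in, leaving out the features at 0 in all 6. The orange class of 10 to 99 counts holds 22 of 738 values, and 62 features lie in the corner of full detection against 1 in each corner of full separation.

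The level of each miR was compared with edgeR's quasi-likelihood test over the 118 features that passed the filter on low counts, with Benjamini-Hochberg (BH) adjustment and scaling by TMM, which sets the bulk of the features equal between libraries. Of the 118, 60 were at 0 in at least 1 of the 6 libraries. edgeR called 0 features at an adjusted p under 0.05 (0.0% of those tested), and the smallest adjusted p was 0.509. At an unadjusted p under 0.05 it gave 3 higher features (2.54%), miR-10b-5p, miR-148b-3p and miR-151-5p, and 2 lower ones (1.69%), miR-451a and miR-152-3p. The filter took in the LA-Tg libraries. With Prog-Tg and WT libraries alone 90 features passed it, and miR-151-5p and miR-152-3p did not. Neither did miR-28a-5p, miR-484, miR-652-3p, miR-574-3p, miR-421-3p, miR-339-5p and miR-150-5p, named further on. These miRs were tested only because of their LA-Tg counts. limma-voom, the test of the study, likewise called 0 features at an adjusted p under 0.05 after the filter used here. It gave 5 higher (4.24%) and 10 lower (8.47%) at an unadjusted p under 0.05, 12.7% in all. The study's own plasma comparison did list miRs at an adjusted p under 0.05, among them those given below as singled out by it. Why the 2 runs differed was not tested. DESeq2 differed from them and called 9 higher features (7.63%) and 10 lower ones (8.47%) after BH adjustment, 16.1% of those tested, and 10 higher (8.47%) and 11 lower ones (9.32%) before it, 17.8% in all. Of its 19 calls, 17 were at 0 in at least 3 of the 6 libraries, 8 had a count in a single library, and 1, miR-10b-5p, was detected in all 6.

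The spread of the fold changes differed with detection. The 58 tested features found in all 6 libraries had a median log2 fold change of 0.01, with 29 above 0 and 29 below, beside a median of -0.01 over all 118. TMM sets the bulk of the features near 0, so these medians say nothing on whether the genotypes were close, and with library size alone the median over all 118 was 0.86. The median SE of the 58 was 0.82, against a median SE of 4.24 for the 60 features missing from a library. The fitted fold change of a miR at 0 in a whole genotype depends on the small number that edgeR adds to counts, and it is not given below.

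**Figure D3:**
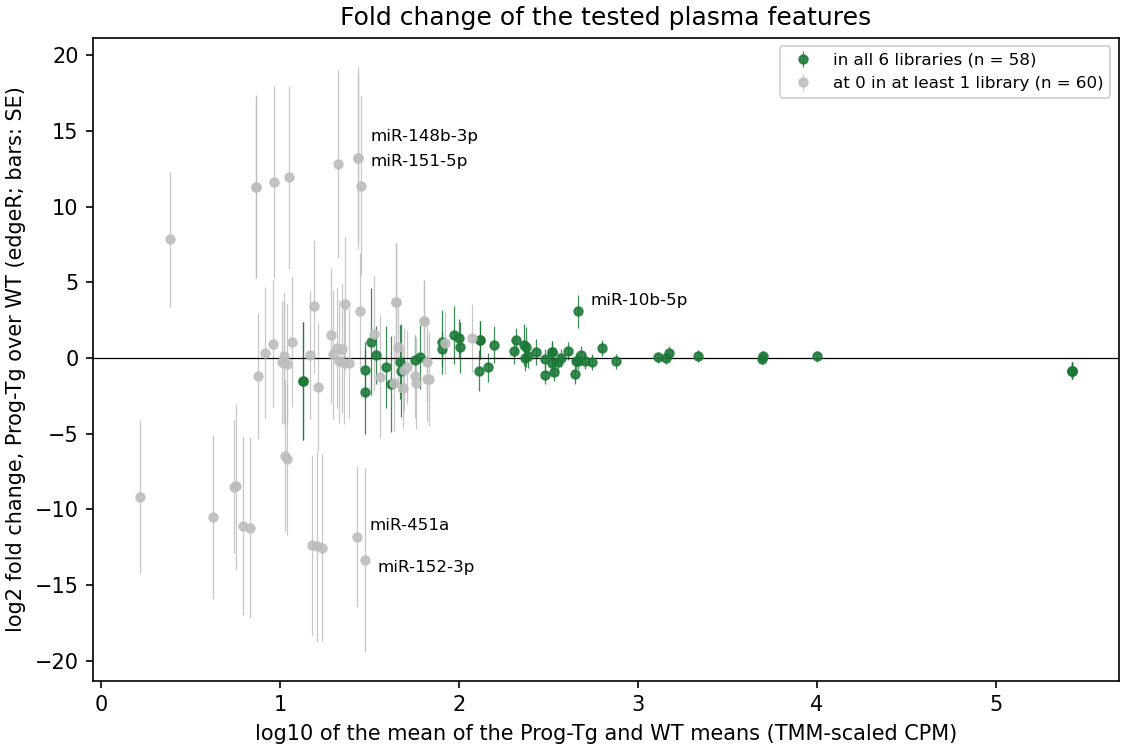
Log2 fold change, Prog-Tg over WT, of the 118 tested features against their level (log10 of the mean of the genotype means, TMM-scaled CPM), with SE bars from edgeR. The 58 features in all 6 libraries (green) lie within 3.07 of 0, the value of miR-10b-5p, and every value beyond 5 in either direction belongs to a feature at 0 in at least 1 library (grey).

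Among the miRs seen mainly in Prog-Tg plasma, miR-148b-3p was the most regular. miR-148b-3p, from a family known to target the DNA methyltransferase gene Dnmt1, had 1553, 1859 and 779 counts in the Prog-Tg libraries, against 0, 0 and 0 in the WT libraries. With the limit of 3 counts over the 3 WT libraries, this was at least 1598-fold higher per count sequenced, by counting error alone. Its edgeR p was 0.0292 and the BH-adjusted p 0.509. The other tests gave an adjusted p of 2.09e-04 (DESeq2) and 0.0987 (limma-voom), and 1.12e-04 with limma-voom without the filter on low counts, so the call differed with the test and with the filter. In LA-Tg plasma miR-148b-3p had 505, 596 and 0 counts, and edgeR gave an unadjusted p of 0.725 for Prog-Tg against LA-Tg.

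The 2 relatives of miR-148b-3p with the same seed behaved otherwise. miR-152-3p had 0, 0 and 0 counts in Prog-Tg plasma, against 1535, 1691 and 0 in WT plasma. The WT libraries themselves ranged over the whole span, and the genotypes overlapped at 0. It was at least 940-fold lower in Prog-Tg by the limit of 3 counts, with an edgeR p of 0.0406 and a BH-adjusted p of 0.509. miR-148a-3p, the most abundant member, had 2549, 2254 and 1 counts in Prog-Tg plasma and 884, 1267 and 327 in WT plasma, with a log2 fold change of -0.25 ± 2.45 (SE), a direction that turned with library size alone (1.07) and without Prog-Tg 3 (0.17). Summed over the 3 members, which share the seed CAGUGCA, the family had 4102, 4113 and 780 counts in Prog-Tg, against 2419, 2958 and 327 in WT, so that the totals overlapped.

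A further 4 miRs were found in Prog-Tg 1 and Prog-Tg 2 and in neither Prog-Tg 3 nor, beyond 1 count, WT plasma. miR-151-5p, from an intron of the focal adhesion kinase gene Ptk2, had 2999, 3054 and 0 counts in Prog-Tg, against 0, 0 and 0 in WT. miR-28a-5p had 3627, 1328 and 0 counts in Prog-Tg, against 0, 0 and 0 in WT. miR-484 had 2006, 661 and 0 counts in Prog-Tg, against 0, 0 and 0 in WT. In each case Prog-Tg 3 was at 0 like the WT libraries. It was the Prog-Tg library with the fewest counts outside miR-486 and with the most detected features (127). Whether depth had a part was not tested. The limit of 3 counts puts the Prog-Tg total at least 2307-fold (miR-151-5p), 1889-fold (miR-28a-5p) and 1017-fold (miR-484) above that of WT. miR-652-3p had 4726, 1919 and 0 counts in Prog-Tg, against 1, 0 and 0 in WT, a ratio of 7599 per count sequenced with a 95% exact counting interval of 1363 to 300188. The edgeR p of these miRs was 0.0407, 0.0521, 0.0632 and 0.0670 in the order given, and the BH-adjusted p was 0.509 for each. DESeq2 called all 4 (adjusted p at most 0.0203). All 4 lay in the list of miRs carried by platelets, whose counts are given further on. The study had itself singled out these 4 miRs and miR-148b-3p on the same libraries, so their direction is not independent of that choice. LA-Tg plasma contained all of them in at least 1 library, with 413 and 445 counts of miR-151-5p, 1184 of miR-28a-5p, 481, 334 and 1 of miR-484 and 753 of miR-652-3p. For Prog-Tg against LA-Tg the unadjusted edgeR p of the 4 was 0.558 to 0.909.

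miRs seen mainly in WT plasma were as irregular. miR-451a, an erythroid miR that is matured by Argonaute 2 without Dicer, had 1, 0 and 0 counts in Prog-Tg plasma, against 1779, 19 and 946 in WT plasma. The genotypes did not overlap, yet the WT libraries differed from each other by more than an order of magnitude. Over the whole groups WT exceeded Prog-Tg by a ratio of 2400 per count sequenced (95% exact counting interval 430 to 94810), with an edgeR p of 0.0193, a BH-adjusted p of 0.509 and a DESeq2 adjusted p of 1.53e-04. LA-Tg plasma spanned the full range, with 3294, 186 and 0 counts. miR-421-3p had 0, 0 and 0 counts in Prog-Tg, against 1, 875 and 455 in WT, so its detection in WT 1 rested on a single count. miR-574-3p had 0, 0 and 0 counts in Prog-Tg, against 1397, 0 and 368 in WT. miR-339-5p had 0, 0 and 0 counts in Prog-Tg, against 2399, 0 and 0 in WT. For these 3 miRs the WT total was at least 388-, 514- and 699-fold above that of Prog-Tg, and the unadjusted edgeR p was 0.0561, 0.0502 and 0.0626. miR-24-1-5p, the minor strand of a miR-24 hairpin, had 0 counts in each Prog-Tg library, against 1173, 0 and 713 in WT, and did not pass the filter. miR-181a-2-3p had 0 counts in each Prog-Tg library, against 969, 822 and 0 in WT, and did not pass either. miR-451a, miR-152-3p, miR-24-1-5p and miR-181a-2-3p were also singled out by the study on these libraries. The 4 remaining features among the 15 smallest p-values were miR-203-3p, miR-425-5p and miR-125b-5p, at 0 in Prog-Tg and present in WT 2 alone with 368, 545 and 596 counts, and miR-150-5p with 0, 0 and 1 counts in Prog-Tg, against 818, 0 and 0 in WT.

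**Figure D4:**
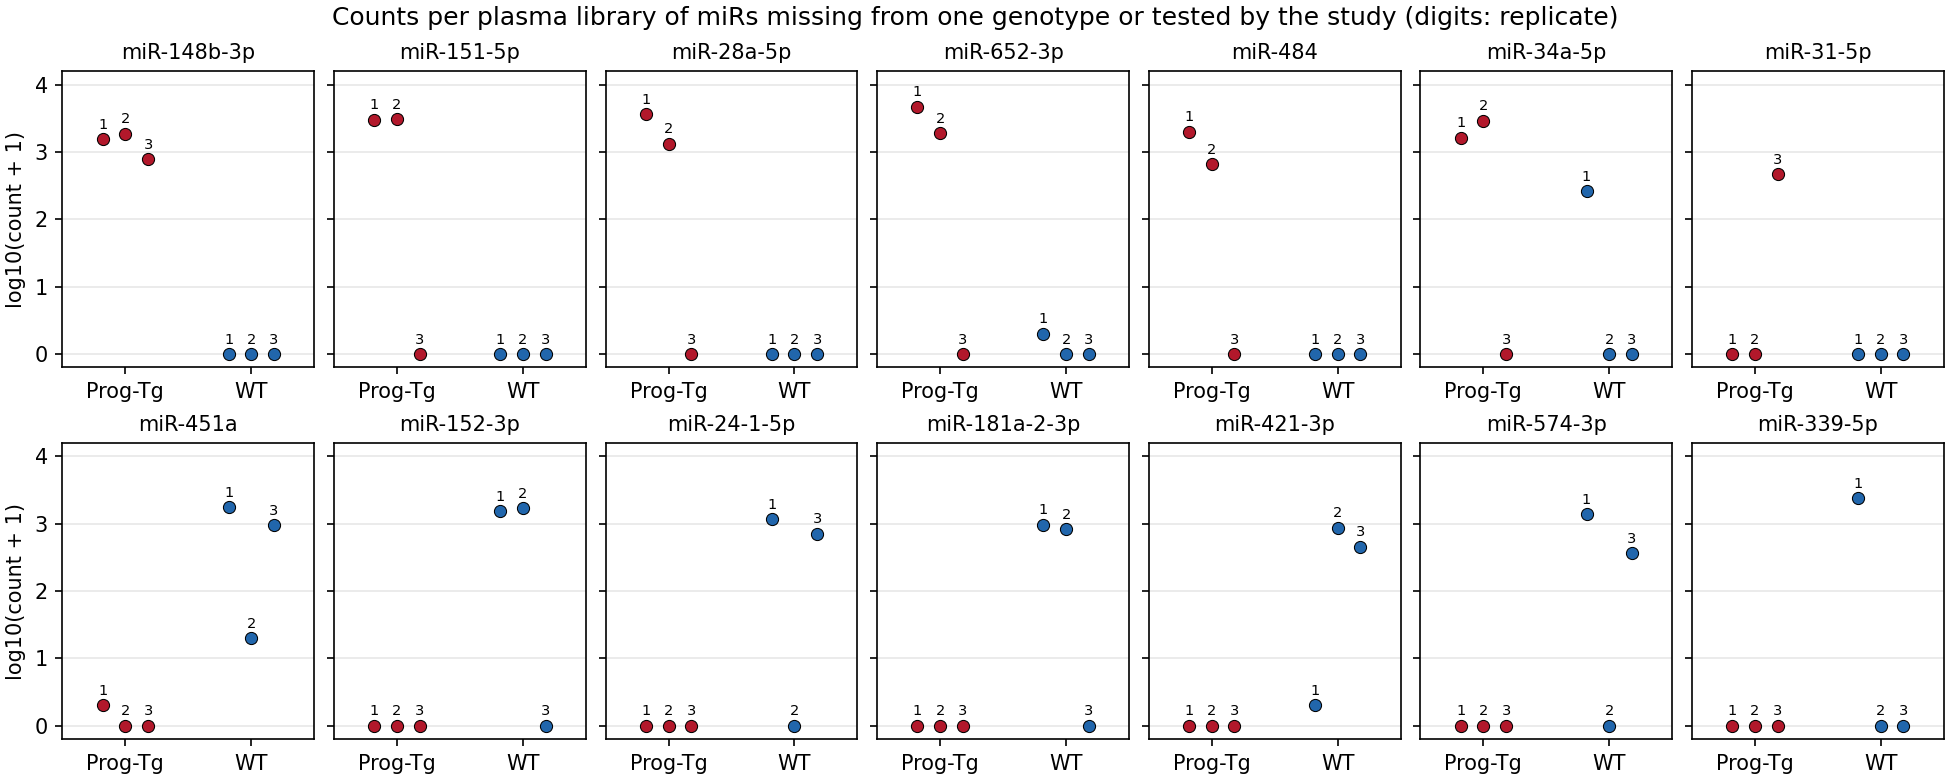
Counts per library, as log10(count + 1), of 14 miRs missing from a genotype or singled out by the study, Prog-Tg in red to the left of WT in blue in each panel, with the replicate number over each point. Most panels show points near 3 and points at 0 within the same genotype; miR-148b-3p, miR-451a and miR-421-3p are those whose genotypes do not overlap.

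The senescence-associated miRs that the study followed were detected in part of the Prog-Tg libraries. miR-34a-5p, a direct target of p53 that restrains Sirt1, had 1632, 2915 and 0 counts in Prog-Tg plasma, against 259, 0 and 0 in WT plasma. Prog-Tg 1 and Prog-Tg 2 were above every WT library, and Prog-Tg 3 was at 0. The TMM-scaled level averaged 42.4 ± 44.4 CPM in Prog-Tg and 3.49 ± 6.05 CPM in WT (SD, n = 3 each), with a log2 fold change of 3.60 ± 4.41 (SE) and a BH-adjusted p of 0.992 by edgeR. The adjusted p was 0.865 with DESeq2 and 0.712 with limma-voom. The fold change rested on WT 1, the only WT library with a count of miR-34a-5p. Without that library the adjusted p was 0.698 by edgeR. The fitted value then depended on the small number that edgeR adds to counts, and it is not given. miR-31-5p had 0, 0 and 468 counts in Prog-Tg, against 0, 0 and 0 in WT, and did not pass the filter on low counts. Its only count above 0 came from the Prog-Tg library that lacked miR-34a-5p, so no plasma library held both. LA-Tg plasma had 0, 0 and 1 counts of miR-34a-5p and none of miR-31-5p. Of the 6 senescence-associated miRs that the study chose on its own libraries, 3 had a count in the 6 plasma libraries, 2 were tested and 0 reached an unadjusted p under 0.05. The third was miR-206-3p, a skeletal muscle miR, with 57.6, 66.3 and 33.4 CPM in Prog-Tg and 0.925, 37.6 and 19.5 CPM in WT. The EC libraries of the series came from cultured ECs of much younger mice and were normalised separately, so they are set here only side by side. There miR-34a-5p was at 8527 to 14145 CPM in Prog-Tg ECs and 3051 to 9127 CPM in WT ECs. miR-31-5p was at 3104 to 4456 CPM in Prog-Tg ECs and 836 to 2357 CPM in WT ECs.

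Endothelial miRs were present in the plasma of both genotypes, with values that tended to be led by a single library. miR-10b-5p had 1962, 1836 and 26136 counts in Prog-Tg plasma, against 1145, 797 and 2076 in WT plasma. Prog-Tg 3 exceeded every other library by more than an order of magnitude, whereas Prog-Tg 1 and Prog-Tg 2 lay below WT 3. The log2 fold change was 3.07 ± 1.06 (SE) with an edgeR p of 0.00868 and a BH-adjusted p of 0.509. This value rested on Prog-Tg 3: without it the log2 fold change was -1.26 (adjusted p = 0.682), and without Prog-Tg 1 or Prog-Tg 2 it was 3.40 or 3.72 with an adjusted p of 0.00138 or 0.00353 by edgeR. limma-voom gave a log2 fold change of 0.29. miR-10a-5p, which shares the seed, had 4630, 4297 and 1927 counts in Prog-Tg, against 1590, 1156 and 2 in WT. Its TMM-scaled CPM did not overlap between the genotypes, but the fold change of 1.53 ± 1.93 (log2, SE) had an edgeR p of 0.44. Non-overlap was not common, with 3 of the 118 features higher in Prog-Tg (2.54%) and 4 lower (3.39%), 5.93% in all. The other higher features were miR-148b-3p and miR-320-3p, and the lower ones were miR-451a, miR-421-3p, miR-25-3p and let-7g-5p.

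miR-126a, whose host gene is the endothelial Egfl7, gave unequal strands. miR-126a-5p had 9985, 3487 and 2231 counts in Prog-Tg, against 2854, 394 and 1057 in WT, with a log2 fold change of 1.18 ± 1.27 (SE). The other strand, miR-126a-3p, had 0, 5062 and 1852 counts in Prog-Tg, against 1451, 0 and 18 in WT, with a log2 fold change of 2.42 ± 2.74 (SE). Prog-Tg 1 thus had the most miR-126a-5p of the 6 libraries and no count of miR-126a-3p. In each of the 3 Prog-Tg EC libraries miR-126a-3p was the more abundant strand, with 188550 to 297726 CPM against 28515 to 73056 CPM of miR-126a-5p. Of the 6 endothelial markers all were tested, 5 had a fold change above 0, 1 passed an unadjusted p under 0.05 (miR-10b-5p) and the median was 1.35, beside 49.2% above 0 and 4.24% at an unadjusted p under 0.05 over all 118 features. The summed counts of the list were 16577, 16104 and 33749 in Prog-Tg, against 11087, 2685 and 3708 in WT. These sums are not scaled for depth, and the counts outside miR-486 differed between the libraries as given above. In Prog-Tg 3, miR-10b-5p alone made up 26136 of the 33749 counts.

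The most abundant miRs besides miR-486 were miRs known from muscle. miR-1a-3p, miR-1b-5p and miR-133a-3p together held 43.2 to 54.3% of the counts outside miR-486 in Prog-Tg plasma, against 47.2 to 56.1% in WT plasma. miR-1b-5p carried 1 count for every 2 of miR-1a-3p (ratio 1.99998 to 2.0), so it is not a separate measurement. miR-1a-3p had 480502, 326835 and 107372 counts in Prog-Tg, against 211365, 141888 and 112894 in WT. After TMM scaling it averaged 10375 ± 907 CPM in Prog-Tg and 9625 ± 1012 CPM in WT (SD, n = 3 each), a log2 fold change of 0.11 ± 0.35 (SE). The value depended on the scaling: on library size alone it was 1.07, with a BH-adjusted p of 0.0418 by edgeR. That scaling raised the median of all tested features by 0.86 on the log2 scale, so relative to that median miR-1a-3p lay close to the other features. miR-133a-3p averaged 4877 ± 465 CPM in Prog-Tg and 5034 ± 235 CPM in WT, with a log2 fold change of -0.05 ± 0.34 (SE), and its sign turned with library size alone (0.86). Of the 9 muscle and heart markers, 7 were found in all 6 libraries, 3 with a fold change above 0 and 4 below, and 0 at an unadjusted p under 0.05. Their summed counts were 734279, 535894 and 165123 in Prog-Tg, against 373499, 235061 and 170701 in WT. miR-145a-5p, made from the same smooth muscle precursor as miR-143-3p, was at 0 in all 6 libraries, while miR-143-3p had 24248, 15543 and 3923 counts in Prog-Tg, against 15093, 8591 and 4645 in WT. miR-499-5p, encoded within a myosin heavy chain gene, had 11239, 8426 and 1986 counts in Prog-Tg, against 9004, 3745 and 900 in WT. Both overlapped between the genotypes.

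Blood cell miRs other than miR-486 were covered unevenly. miR-16-5p, which is abundant in red cells and limits cyclin expression, had 8464, 5999 and 5535 counts in Prog-Tg, against 2490, 3178 and 1859 in WT. As a share of all counts this was 381.6, 349.5 and 370.9 CPM in Prog-Tg and 128, 140 and 93.3 CPM in WT, a difference without overlap. After TMM scaling the levels were 201, 182 and 504 CPM in Prog-Tg, against 101, 219 and 174 CPM in WT, and they did overlap. The log2 fold change after TMM scaling was 0.85 ± 1.38 (SE), with a BH-adjusted p of 0.992 by edgeR, and it fell to 0.00 without Prog-Tg 3. The choice of scaling mattered in the same way for other miRs: on the share of all counts, 12 of the 236 features (5.08%) were higher in Prog-Tg without overlap and 2 (0.847%) were lower. Among the 8 erythroid markers, 3 were in all 6 libraries, both strands of miR-144 and miR-363-3p were at 0 in each, and miR-451a was the only one of the 4 tested markers to reach an unadjusted p under 0.05 in edgeR. miR-486a-5p, the main erythroid marker by count, averaged 190451 ± 119873 TMM-scaled CPM in Prog-Tg and 341364 ± 138792 in WT, with a log2 fold change of -0.84 ± 0.58 (SE) and a BH-adjusted p of 0.681 by edgeR. The value depended on the scaling, and with library size alone it was -0.04. The log2 ratio of miR-451a to miR-23a-3p, used as an index of red cell lysis, was -6.61, 0.00 and -9.31 in Prog-Tg, against 1.83, -6.25 and 0.31 in WT (1 added to each count). Prog-Tg 2 had no count of either miR, so its ratio carries no information. The exact permutation test of the genotypes gave p = 0.20 with that value included, and no conclusion is drawn from it. Whether red cell content had a part in the low miR-451a of Prog-Tg plasma was not tested.

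The platelet list had 12 markers, of which 11 were detected and tested, 8 had a fold change above 0 and 3 below, and 1 passed an unadjusted p under 0.05 (miR-151-5p), beside 49.2% above 0 and 4.24% at that p over all 118 features. The 8 above 0 include miR-151-5p, miR-28a-5p, miR-484 and miR-652-3p, which had at most 1 count in any WT library. The study had singled them out on these libraries, so the tally is not independent of that choice and no conclusion is drawn from it. miR-223-3p, the defining miR of platelets and myeloid cells, was at 0 in all 6 libraries. Summed counts of the list were 110428, 82927 and 23887 in Prog-Tg, against 60084, 25447 and 20671 in WT, and stood in the same order as the counts outside miR-486. miR-22-3p led the list with 23427, 17163 and 5142 counts in Prog-Tg, against 15080, 3320 and 5199 in WT. miR-199a-3p had 33013, 9169 and 3744 counts in Prog-Tg, against 9067, 6246 and 2390 in WT. miR-21a-5p, which is common to many cell types, had 13447, 8654 and 7676 counts in Prog-Tg, against 12428, 7446 and 5078 in WT. These 3 miRs overlapped between the genotypes. Whether platelet content had a part in the counts of miR-151-5p, miR-28a-5p, miR-484 and miR-652-3p was not tested. Of the 9 leukocyte markers, 7 had a count, only miR-181a-5p was in all 6 libraries, and 0 of 6 tested reached an unadjusted p under 0.05. miR-181a-5p had 2, 1800 and 9073 counts in Prog-Tg, against 6427, 1814 and 1696 in WT, and miR-142a-5p had 1984, 0 and 0 counts in Prog-Tg, against 1014, 0 and 0 in WT. miR-342-3p had 1973, 0 and 0 counts in Prog-Tg, against 0, 333 and 0 in WT. Prog-Tg 1 was thus the only Prog-Tg library with a count of miR-142a-5p or miR-342-3p. The lymphocyte miR-150-5p and the inflammatory miR-155-5p had at most 1 count in Prog-Tg. miR-146a-5p, an inhibitor of NF-kB signalling, had 1937, 0 and 0 counts in Prog-Tg, against 2, 0 and 2 in WT.

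miRs known from liver and epithelium were compared next. miR-122-5p, the hepatocyte miR, had 2004, 7424 and 746 counts in Prog-Tg, against 2643, 1540 and 3359 in WT, with a log2 fold change of -0.63 ± 0.95 (SE). miR-192-5p, found in liver, gut and kidney, had 6127, 7996 and 428 counts in Prog-Tg, against 1009, 886 and 752 in WT. Prog-Tg 1 and Prog-Tg 2 were above all WT libraries and Prog-Tg 3 was below them, and the log2 fold change was 1.31 ± 1.26 (SE; BH-adjusted p of 0.992 by edgeR). Of the 7 epithelial markers 5 had a count and none was in all 6 libraries. miR-200a-3p, which maintains epithelial identity, had 1399, 0 and 0 counts in Prog-Tg, against 2, 440 and 0 in WT, and miR-141-3p of the same family had 8, 0 and 0 counts in Prog-Tg, against 532, 0 and 0 in WT. miR-429-3p and miR-205-5p were at 0 in Prog-Tg, against 430 counts in WT 2 and 358 counts in WT 1. The islet miR-375-3p had 0, 913 and 0 counts in Prog-Tg, against 0, 378 and 86 in WT.

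let-7, which restrains proliferation and is blocked by Lin28, had all 9 members in each of the 6 libraries. The 4 members below are printed, since they differ by few bases outside the shared seed and a misread base can move a read between them.
let-7a-5p: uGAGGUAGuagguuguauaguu
let-7b-5p: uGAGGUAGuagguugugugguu
let-7c-5p: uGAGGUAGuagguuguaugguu
let-7g-5p: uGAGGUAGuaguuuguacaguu

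let-7a-5p itself had 36560, 42050 and 23837 counts in Prog-Tg, against 30081, 23120 and 15435 in WT, which overlapped. Relative to let-7a-5p, let-7c-5p differed by A19G, let-7b-5p by A17G and A19G, and let-7g-5p by G12U and U18C. let-7b-5p had 30270, 15893 and 12133 counts in Prog-Tg, against 12022, 7562 and 5129 in WT. let-7c-5p had 27983, 38931 and 34800 counts in Prog-Tg, against 23718, 24244 and 14357 in WT. let-7g-5p went the other way after scaling, with 310, 244 and 154 TMM-scaled CPM in Prog-Tg and 438, 550 and 353 CPM in WT. Their log2 fold changes were 0.63 ± 0.53, 0.34 ± 0.47 and -0.92 ± 0.58 (SE), with unadjusted edgeR p of 0.24, 0.48 and 0.13. Of the 9 members, 4 had a fold change above 0 and 5 below, the median was -0.12 and 0 passed an unadjusted p under 0.05. With library size alone let-7g-5p turned to 0.09, and with limma-voom let-7c-5p turned to -0.02.

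**Figure D5:**
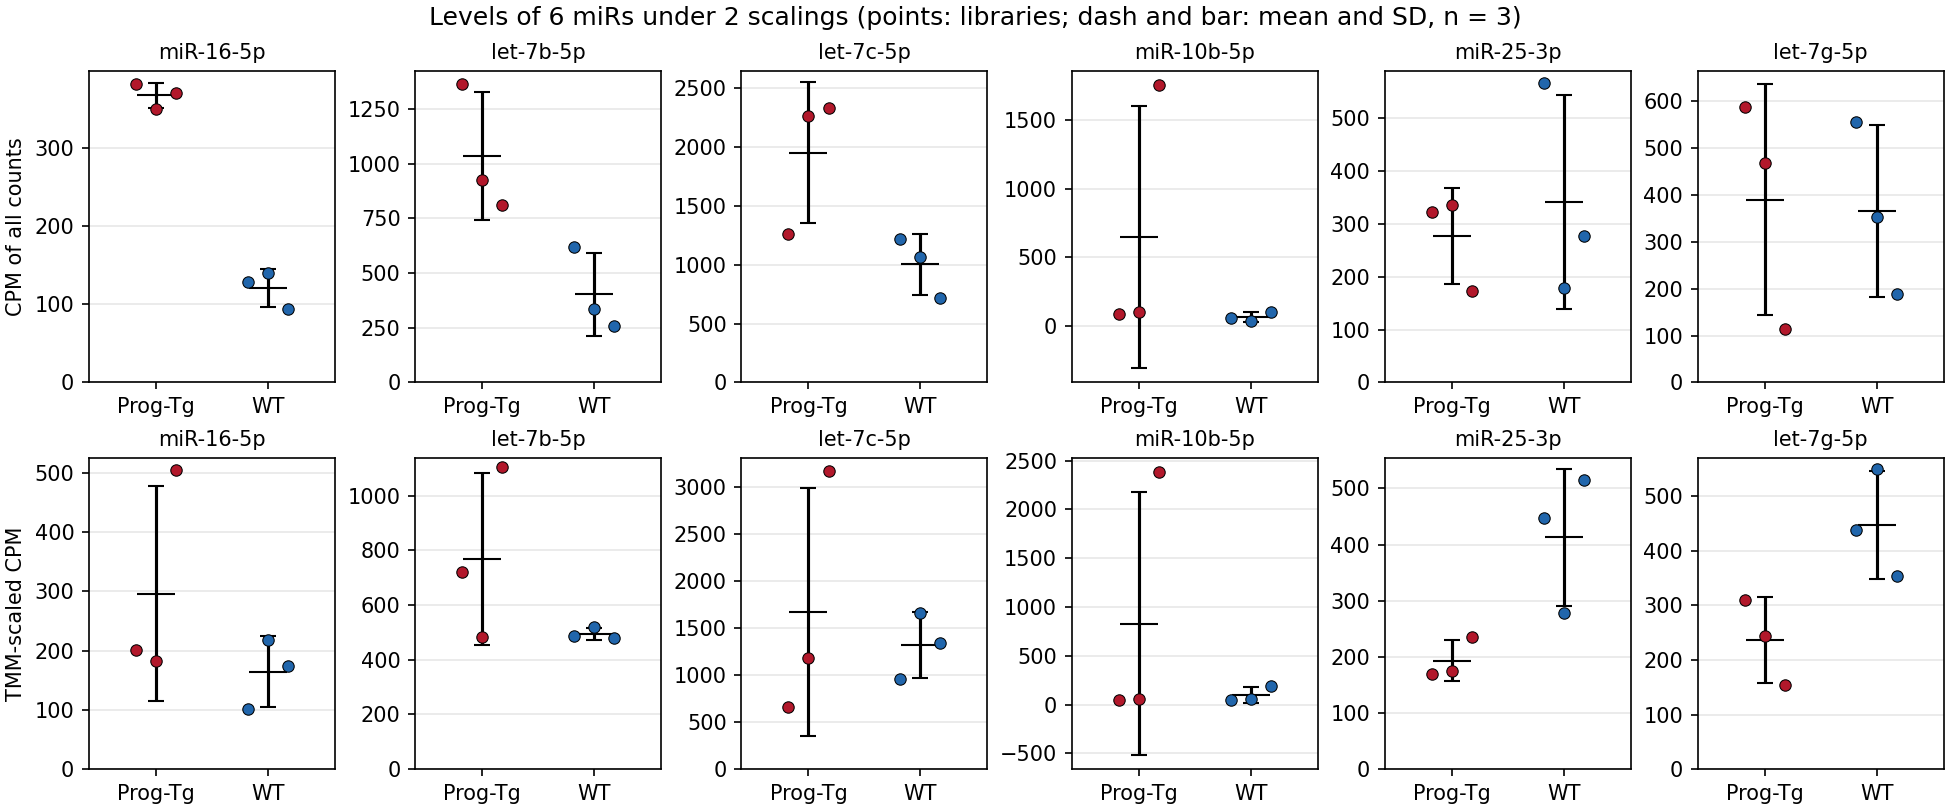
Level of 6 miRs in each plasma library as CPM of all counts (upper row) and as TMM-scaled CPM (lower row), Prog-Tg in red to the left of WT in blue, with mean and SD (n = 3). miR-16-5p, let-7b-5p and let-7c-5p do not overlap between the genotypes in the upper row and overlap in the lower row, whereas miR-25-3p and let-7g-5p do the reverse. In miR-10b-5p a single Prog-Tg library carries the difference in both rows.

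The miR-17 cluster and its paralogs, which promote cell cycle entry, were patchy. Of the 11 members, 8 had a count, and only miR-25-3p and miR-92a-3p, which share a seed, were in all 6 libraries.
miR-25-3p: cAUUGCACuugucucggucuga
miR-92a-3p: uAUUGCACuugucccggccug

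miR-25-3p had 7151, 5760 and 2581 counts in Prog-Tg, against 11043, 4042 and 5502 in WT, with a log2 fold change of -1.10 ± 0.64 (SE; BH-adjusted p of 0.544 by edgeR). miR-92a-3p had 7074, 8910 and 1850 counts in Prog-Tg, against 1439, 3864 and 102 in WT, with a log2 fold change of 0.86 ± 1.23 (SE; BH-adjusted p of 0.992 by edgeR). miR-25-3p did not overlap between the genotypes after scaling, and miR-92a-3p did. miR-93-5p had 0, 1743 and 68 counts in Prog-Tg, against 879, 487 and 0 in WT, and miR-19b-3p had 0, 2 and 711 counts in Prog-Tg, against 0, 2224 and 0 in WT.

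The miR-30 family, known from cardiomyocytes and endothelium, had 8 members tested, 3 above 0 and 5 below, with a median of -0.04. miR-30e-3p and miR-30f, which had identical counts, entered this tally and median as 2 members. miR-30c-5p had 5256, 10372 and 4600 counts in Prog-Tg, against 25269, 5432 and 4552 in WT, and WT 1 alone stood above the Prog-Tg range. miR-30d-5p, the most abundant member, had 13179, 16578 and 4908 counts in Prog-Tg, against 14148, 8258 and 3388 in WT. miR-30a-5p had 12891, 7903 and 6162 counts in Prog-Tg, against 8857, 6397 and 3360 in WT, and miR-30e-5p had 9797, 9708 and 3975 counts in Prog-Tg, against 5532, 4143 and 4532 in WT. All 4 of these members overlapped between the genotypes. The log2 fold change of miR-30c-5p was -1.08 ± 0.60 (SE; BH-adjusted p of 0.509 by edgeR). Of the 7 members of the miR-23, miR-24 and miR-27 clusters, 5 were tested, 2 were above 0 and 3 below, and 0 passed an unadjusted p under 0.05. miR-27b-3p, the most abundant of them, had 24906, 16693 and 4412 counts in Prog-Tg, against 14421, 6612 and 8239 in WT. miR-24-3p had 12774, 21166 and 1968 counts in Prog-Tg, against 14390, 3286 and 692 in WT. miR-27a-3p had 3328, 1730 and 4 counts in Prog-Tg, against 856, 395 and 4 in WT, and miR-23b-3p had 87.8, 0 and 26.9 CPM in Prog-Tg, against 25.4, 34.7 and 100.3 CPM in WT. The genotypes overlapped for each of the 4. Of the 6 members of the miR-181 family, which tunes lymphocyte and endothelial signalling, 3 were tested and 3 lay above 0, with 0 at an unadjusted p under 0.05. miR-181b-5p had 7770, 989 and 1749 counts in Prog-Tg, against 1980, 558 and 1203 in WT, and miR-181c-5p was seen in Prog-Tg 3 alone, with 609 counts. Of 22 miRs of the imprinted Dlk1-Dio3 locus, 7 had a count and 1 was tested. The 7 include miR-299a-3p and miR-299b-5p, which had identical counts. miR-411-5p of this locus had 7440, 1 and 1 counts in Prog-Tg, against 0, 730 and 0 in WT. miR-673-3p, miR-379-5p and miR-299b-5p were at 0 in Prog-Tg and each in a single WT library, with 846, 707 and 391 counts.

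The remaining miRs among the 15 most abundant features were let-7a-5p, let-7f-5p, miR-26a-5p, miR-378a-3p and miR-143-3p. miR-26a-5p had 122269, 59558 and 22766 counts in Prog-Tg, against 72220, 32766 and 10940 in WT. let-7f-5p had 65886, 31809 and 15091 counts in Prog-Tg, against 30988, 22746 and 10579 in WT. miR-378a-3p had 37906, 21673 and 5940 counts in Prog-Tg, against 17793, 10255 and 10961 in WT. Each of the 3 overlapped between the genotypes, and the edgeR p before adjustment was 0.646 to 0.925.

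Setting Prog-Tg against LA-Tg plasma gave no adjusted call either. edgeR called 0 of the 118 features at an adjusted p under 0.05 (0.0%) and 6 (5.08%) at an unadjusted p under 0.05, and LA-Tg against WT gave 0 (0.0%) and 5 (4.24%). These comparisons share libraries with that of Prog-Tg and WT. Detection was also compared with the other materials of the series: 220 of the 236 features (93.2%) had a count in at least 1 of the 9 EC libraries and 217 (91.9%) in at least 1 of the 9 medium libraries of the series, against 68.0% and 34.1% of all 1907 features. A single count sufficed for this, and the EC and medium libraries came from cultured ECs of much younger mice.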

How the data were processed

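Plasma small RNA was sequenced from 3 Prog-Tg, 3 LA-Tg and 3 WT mice. The authors deposited raw counts per mature miR, made with STAR 2.5.1b on GRCm38 and HTSeq 0.5.4p3 in the submitters' notes; counts were not normalized, and collapsing by molecular identifiers is not stated. The authors' comparison columns and the mRNA data were not used. edgeR 4.0.16 (R 4.3.3) was fitted to the 9 plasma libraries by genotype after filterByExpr (count minimum 10, total minimum 15) with TMM scaling; SE was the log2 fold change over the root of the quasi-likelihood F, and p was adjusted by BH. DESeq2 1.42.0, limma 3.58.1 (voom), other filters and scalings and leaving out libraries were alternatives. Single values were compared by exact permutation (SciPy 1.17.1). Levels at 0 were bounded by 3 counts over the group. Scripts were tested on simulated data.

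Named miRs were miR-34a-5p, miR-31-5p and those the study called in plasma, the 15 smallest edgeR p-values, the 15 highest mean CPM, the features in 3 against 0 libraries, and the 4 highest members of each list. The members and lists were chosen with earlier results of these data known. Of 283 features with a plasma count, 242 matched a RefSeq mature sequence (GRCm38.p6); host genes are from GENCODE vM21. Total counts were 14922120 to 22674234 in the 6 libraries.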

Additional observations from a re-analysis of the deposited data

How the results depend on the processing

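The count of calls at an adjusted p under 0.05 depended on the test. edgeR, limma-voom, RLE scaling, no filter, the stricter filter (over 10 CPM in 3 libraries), the fit of Prog-Tg and WT alone, identical features collapsed and miR-486 left out each gave 0, while DESeq2 gave 9 higher and 10 lower (19), limma-voom without a filter 1 higher (miR-148b-3p) and library size alone 1 higher (miR-1a-3p). Leaving out a library gave 0 to 1, higher in each case (miR-10b-5p without Prog-Tg 1 or Prog-Tg 2), and 0 lower. At an unadjusted p under 0.05 edgeR gave 3 higher and 2 lower (5), against 10 and 11 (21) with DESeq2, 5 and 10 (15) with limma-voom, 10 and 15 (25) without a filter, 7 and 9 (16) with limma-voom without a filter, 9 and 5 (14) with library size alone, 4 lower and 8 in all without miR-486, 1 higher in the fit of 2 genotypes, and 2 to 5 higher, 1 to 10 lower and 5 to 13 in all when a library was left out. Library size alone put 67.8% of the features above 0, limma-voom 40.7% and the edgeR fit 49.2%.

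The mice were littermate pairs, but the replicate numbers are not tied to litters and did not pair the libraries in the data: deviations of same-numbered Prog-Tg and WT libraries correlated at -0.08, -0.03 and 0.02, and 0 of 3 Prog-Tg libraries matched their own number best. With the replicate block 1 feature was higher and 5 lower at an unadjusted p under 0.05, and 0 passed after adjustment (smallest adjusted p 0.931).

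The difference in detected features, -0.67 per library, became 3.00 when scaled to the shallowest library, 0.33 with identical features collapsed, and -7.83 to 6.67 when a library was left out. Features in 3 of 3 Prog-Tg and 0 of 3 WT libraries numbered 1 to 7 when a library was left out, and those in 0 of 3 and 3 of 3 numbered 1 to 4, or 0 at 1 CPM. The miR-486 share kept its direction throughout (-4.36 to -2.15 percentage points when a library was left out and -5.23 with identical features collapsed). The log2 ratio over miR-16-5p was -1.67 (exact permutation p = 0.10). It also carries the higher share of miR-16-5p in Prog-Tg, so it is not a measure of miR-486 alone.

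Of 514 fold changes of 31 named miRs under alternatives, 478 kept direction and side. A further 16 passed the threshold only under the alternative and 20 changed sign, and the cause was not tested. The 478 do not measure stability. Several of the 31 miRs, such as miR-148b-3p and miR-152-3p, were at 0 in a whole genotype, which all but fixed their sign. The 478 also include a fold change of 0.0, that of miR-339-5p without WT 1. Some of the miRs were named for a small p on the same libraries. limma-voom gave -0.0174 for let-7c-5p and -0.43 without a filter. Library size alone gave 0.0924 (let-7g-5p), 0.62 (miR-122-5p), 0.86 (miR-133a-3p) and 1.07 (miR-148a-3p). miR-133a-3p was 0.0169 with DESeq2, 0.0170 with RLE scaling and 0.0157 with identical features collapsed. Leaving out a library gave -1.26 to 3.99 for miR-10b-5p, -0.73 to 0.61 for let-7c-5p, -0.000859 to 1.17 for miR-16-5p, -0.174 to 0.154 for miR-1a-3p, -10.96 to 2.24 for miR-150-5p and -0.78 to 0.167 for miR-148a-3p.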
